A study of Homo sapiens with 9 samples.

Results

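The 14-3-3 proteins are small adaptors that form dimers and bind other proteins at phosphorylated serine or threonine residues, so that a kinase can change where its substrate sits in the cell or what it binds. They are abundant in the brain, where they act on neuronal migration, on cytoskeletal regulators and on the turning of growth cones. In humans the family has 7 genes, YWHAB (beta), YWHAE (epsilon), YWHAG (gamma), YWHAH (eta), YWHAQ (theta, also called tau), YWHAZ (zeta) and SFN (sigma). All 7 were found by symbol among the 42785 genes of the count tables, and they were described in mRNA precipitated with the guidance receptors DCC and Nrp1 and in lysate. The family was chosen by a measured value, the counts of YWHAE in lysate, where it had the most of any gene. For that reason the lysate level of YWHAE and its comparisons with it are given as a description with no test.

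SH-SY5Y is a cell line derived from a human neuroblastoma. Lysates of cells kept in medium with serum were incubated with beads that carried a mouse antibody against DCC, the Netrin-1 receptor (DCC-IP), or a rabbit antibody against Nrp1, the Sema3A receptor (Nrp1-IP), and RNA was also taken from lysate (Input), with 3 libraries in each group and 9 in all. All cells came from one line, the lysis buffer held cycloheximide and nuclei were spun out of the lysate, and cDNA was amplified by a method made for single cells before sequencing. The study checked RNA recovery against pulldowns with control IgG, of which no library was analysed here, so levels are given against Input and between the receptors.

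The libraries held 8838296 to 11055895 reads assigned to genes. Counts were scaled to CPM, the counts a gene would have in a library of one fixed size, with edgeR's TMM method over all 9 libraries, which sets library sizes from the bulk of the genes, because MAP1B alone held 40.3% to 52.1% of the gene counts in DCC-IP. On this scale 3 counts, taken as the floor of detection, were 0.208 to 0.387 CPM, which covers counting error only. Of 15 markers of sympathetic neuroblastoma, 7 were over the floor in all 3 Input libraries, while TH was at 0 in all 9 libraries. Most of the summed marker level came from ISL1, whose counts were 1833 to 3121 in Input, 17501 to 35114 in DCC-IP and 10742 to 14479 in Nrp1-IP. Of 5 markers of mesenchymal or Schwann cells, 3 (PRRX1, S100B and SOX10) were at 0 in all 9 libraries, and the summed CPM were 3.87 to 27.3 in Input, 0.401 to 3.75 in DCC-IP and 1.87 to 7.65 in Nrp1-IP. The 5 measured markers of blood, epithelium and liver were at 0 except for 12 counts of EPCAM in Nrp1-IP replicate 2. The study's methods describe its experiments in general as independent biological replicates. The labels do not say which culture each library came from, and p-values measure the spread between these libraries.

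The 14-3-3 mRNAs differed in how many libraries held them over the floor. YWHAE, YWHAZ and YWHAH were over the floor in all 9 libraries, YWHAQ in 8 of them, YWHAG and YWHAB in fewer, and SFN had 0 counts throughout. In Input, reads on the 7 genes made up 2.91% ± 0.457 (SD, n = 3) of all gene counts. The share was 0.591% ± 0.284 in DCC-IP and 0.268% ± 0.0164 in Nrp1-IP (SD, n = 3 each). With MAP1B taken out of the total, the DCC-IP share was 1.09% ± 0.392 (SD, n = 3), still under the lowest Input library. YWHAE held 86.3% of the family's counts in Input, so its choice for those counts favours a high family share there. These are shares of libraries, so a smaller amount of the 14-3-3 mRNAs and a larger amount of other RNA cannot be told apart. Amounts of mRNA per cell were not measured.

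YWHAE encodes 14-3-3 epsilon, the member best known for its part in neuronal migration, where it protects the phosphorylated form of NDEL1. It had 250760, 245395 and 238364 counts in the 3 Input libraries. Summed over Input, its 734519 counts were the most of any gene, ahead of ANP32E with 687026 and PAFAH1B2 with 682138, but in the single Input libraries it ranked 3, 3 and 2. In DCC-IP it had 36609, 42979 and 72121 counts and ranked 18, 18 and 7. In Nrp1-IP it had 18212, 19951 and 21009 counts and ranked 114, 107 and 111. Every Input library thus lay above every DCC-IP library, and every DCC-IP library above every Nrp1-IP library. In CPM, DCC-IP lay below Input without overlap for 18.2% of the genes tested. Nrp1-IP lay so below Input for 13.8% and below DCC-IP for 10.9%.

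Scaled to CPM, YWHAE stood at 30590 ± 1584 in Input, at 4199 ± 780 in the DCC pulldown and at 1709 ± 129 in the Nrp1 pulldown (SD, n = 3 each). The log2 fold change over Input was -2.72 (standard error 0.281) in DCC-IP and -4.09 (standard error 0.233) in Nrp1-IP. Among all genes tested, 6.51% had a lower value than YWHAE in the former comparison and 1.06% in the latter. The choice of YWHAE for its Input counts favours low values here. The 19 genes next in Input counts had a median log2 fold change of -2.26 in DCC-IP, with 6 of them below YWHAE, and of -1.48 in Nrp1-IP, with 1 of them, ACTB at -6.35, below it.

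**Figure D1:**
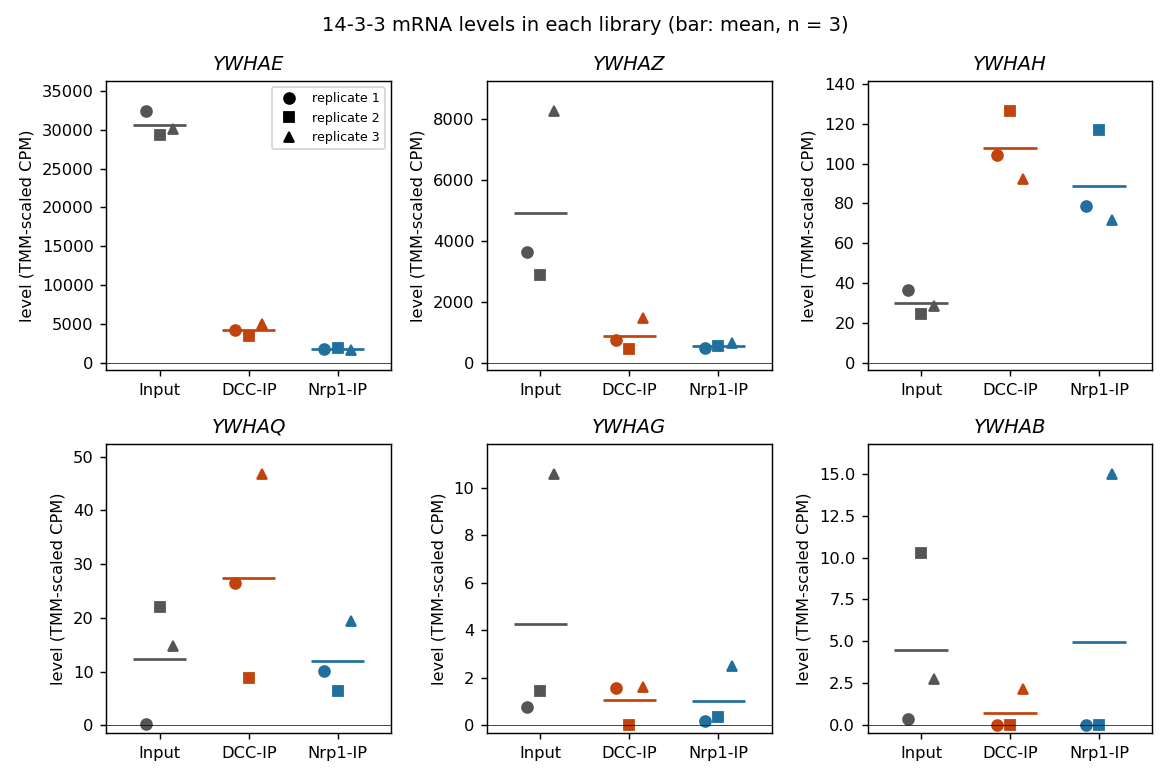
Level of 6 14-3-3 mRNAs in each library, in TMM-scaled CPM on linear axes that differ between panels, with 1 point per library, its shape giving the replicate number, and a bar at the group mean (n = 3). YWHAE and YWHAZ stand highest in Input, YWHAH stands lowest in Input, and the groups overlap for YWHAQ, YWHAG and YWHAB.

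YWHAZ encodes 14-3-3 zeta, a widely expressed member that binds many kinases and cytoskeletal regulators. It had 28140, 24023 and 65556 counts in Input, 6527, 5448 and 20923 in DCC-IP and 5143, 6046 and 8428 in Nrp1-IP. Input lay above both pulldowns in every library, whereas the DCC-IP and Nrp1-IP libraries overlapped. In CPM, Input lay above DCC-IP without overlap for 18.2% of the genes tested, and above Nrp1-IP for 13.8%. The library with replicate number 3 was the highest in each group, and so was its number of genes with at least 1 count (11937 in Input, 11259 in DCC-IP and 12240 in Nrp1-IP). The part of this in the levels of YWHAZ was not tested. The means were 4923 ± 2916 CPM in Input, 876 ± 521 in DCC-IP and 558 ± 76.4 in Nrp1-IP (SD, n = 3 each).

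YWHAH encodes 14-3-3 eta, a member found mainly in the brain. It went the other way. It had 284, 205 and 227 counts in Input, 920, 1575 and 1331 in DCC-IP and 840, 1266 and 949 in Nrp1-IP. Each pulldown library lay above each Input library, while the pulldowns overlapped with each other. The same held for 15.2% of the genes tested for DCC-IP over Input and for 17.7% for Nrp1-IP over Input. The means were 29.9 ± 6.18 CPM in Input, 108 ± 17.2 in DCC-IP and 88.9 ± 24.4 in Nrp1-IP (SD, n = 3 each).

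YWHAQ encodes 14-3-3 theta. It had 2, 184 and 117 counts in Input, 234, 111 and 674 in DCC-IP and 107, 69 and 258 in Nrp1-IP. Its groups overlapped in all 3 comparisons, and Input replicate 1 was under the floor. YWHAG, the gene of 14-3-3 gamma, had between 0 and 84 counts per library, with 6, 12 and 84 in Input, 14, 0 and 23 in DCC-IP and 2, 4 and 33 in Nrp1-IP. YWHAB, the gene of 14-3-3 beta, had 0 counts in 4 libraries, those with replicate numbers 1 and 2 of both pulldowns, against 31 in DCC-IP replicate 3 and 199 in Nrp1-IP replicate 3. In Input it had 3, 86 and 22 counts. For YWHAG and YWHAB no direction was detectable at this depth. SFN encodes 14-3-3 sigma, which is known chiefly from epithelia, and the 0 counts in each library allow a level of up to 0.208 to 0.387 CPM, depending on the library.

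Gene lengths were not used, so levels of different 14-3-3 genes were not ranked against each other. RefSeq (GRCh38.p14) lists processed copies of several members, 10 each for YWHAQ and YWHAZ, 7 for YWHAE and 2 for YWHAB, and none for YWHAG, YWHAH and SFN. None of these 29 pseudogenes has a row under its symbol in the count tables. Reads with several alignments made up 2.83% to 3.83% of a library and count for no gene, so the counts of YWHAE, YWHAZ, YWHAQ and YWHAB are uncertain to the extent that their reads also match a copy. The genes lie on chromosomes 20 (YWHAB), 17 (YWHAE), 7 (YWHAG), 22 (YWHAH), 2 (YWHAQ), 8 (YWHAZ) and 1 (SFN) by the same annotation.

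For each pair of groups, edgeR's quasi-likelihood test was run on the 6 libraries concerned, and a gene was called when its Benjamini-Hochberg adjusted p, taken over all genes tested, was under 0.05. The first question was which 14-3-3 mRNAs differed between the receptors. YWHAE was lower in Nrp1-IP than in DCC-IP, with a log2 fold change of -1.44 (standard error 0.266, edgeR adjusted p = 0.0184), a difference of 2.71-fold. It was the 1 member called among the 5 that passed the filter on low counts, where 3.65% of the 6439 genes tested were called (2.56% higher and 1.09% lower in Nrp1-IP). Its libraries did not overlap, nor did those of 26.6% of the genes tested. This call was known from earlier work on the same libraries and is no independent evidence. The other 4 members did not pass, and all genes tested had a median of -0.27.

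In the same comparison YWHAZ had a log2 fold change of -0.77 (standard error 0.418, edgeR adjusted p = 0.397), YWHAH one of -0.45 (standard error 0.432, adjusted p = 0.704) and YWHAQ one of -1.30 (standard error 0.772, adjusted p = 0.447). The call on YWHAE ended without DCC-IP replicate 3, where the log2 fold change was -0.92 (edgeR adjusted p = 0.0615), and without any one of the Nrp1-IP libraries, where it was -1.29, -1.48 and -1.36 (edgeR adjusted p = 0.303, 0.147 and 0.153 without replicates 1, 2 and 3). Over the 16 alternatives its adjusted p ran from 0.00823 to 0.303. Without DCC-IP replicate 3 the log2 fold change of YWHAZ was 0.18 (edgeR adjusted p = 0.8), so its sign between the receptors rested on that library. All genes tested had a median of 0.315 in that fit and of -0.268 with all 6 libraries. YWHAZ lay below the median in both fits. YWHAQ had -0.27 without DCC-IP replicate 3 (edgeR adjusted p = 0.91), below the median of 0.315 in that fit.

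The second comparison, of Nrp1-IP with Input, asked which 14-3-3 mRNAs the Nrp1 pulldown held at a level other than that of the lysate. YWHAZ was lower in Nrp1-IP, with a log2 fold change of -3.11 (standard error 0.477, edgeR adjusted p = 0.0173), a difference of 8.60-fold. It was the 1 member called among the 5 tested, YWHAE left aside, where 4.97% of the 6501 genes tested were called (1.94% higher and 3.03% lower in Nrp1-IP) and 2.77% had a lower log2 fold change. YWHAH was higher in Nrp1-IP by 1.64 on the log2 scale (standard error 0.398, edgeR adjusted p = 0.0589), which misses the threshold. YWHAQ, YWHAG and YWHAB did not pass (edgeR adjusted p = 0.977, 0.439 and 0.952).

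The call on YWHAZ was lost without any one of the Nrp1-IP libraries (edgeR adjusted p = 0.127, 0.137 and 0.091 without replicates 1, 2 and 3), while its log2 fold change there stayed between -3.21 and -3.0. In those 3 fits the calls over all genes fell from 323 to 0, 7 and 7. Without Input replicate 3, the library with the most YWHAZ counts, the log2 fold change was -2.61 (edgeR adjusted p = 0.00189). Its adjusted p ran from 1.89e-23 to 0.137 over the 16 alternatives.

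The third comparison was that of DCC-IP with Input. In the main fit, which took no account of the replicate number, none of the 5 members tested by edgeR's quasi-likelihood test passed. YWHAE was again left aside, and 4.98% of the 6223 genes tested were called (1.46% higher and 3.52% lower in DCC-IP). Before adjustment 2 of them, YWHAZ and YWHAH, had a p under 0.05, as had 22.0% of the genes tested. YWHAZ was lower in DCC-IP by a log2 fold change of -2.31 (standard error 0.589, edgeR adjusted p = 0.0594), and YWHAH was higher with one of 1.98 (standard error 0.517, edgeR adjusted p = 0.0628). Both sets of libraries were free of overlap, as were those of 33.4% of the genes tested. The deviations of same-numbered libraries of these 2 groups correlated at 0.117 to 0.421, and those of other pairs at -0.31 to 0.136. With the replicate number as a block, both members passed, YWHAZ with -2.39 (edgeR adjusted p = 0.000708) and YWHAH with 1.98 (edgeR adjusted p = 0.0314). The calls over all genes rose from 310 to 715 with that block. DESeq2 called the same 2 members, and edgeR's exact and likelihood ratio tests called 1, YWHAZ. YWHAQ, YWHAG and YWHAB did not pass in the fit without the block (edgeR adjusted p = 0.616, 0.593 and 0.582).

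**Figure D2:**
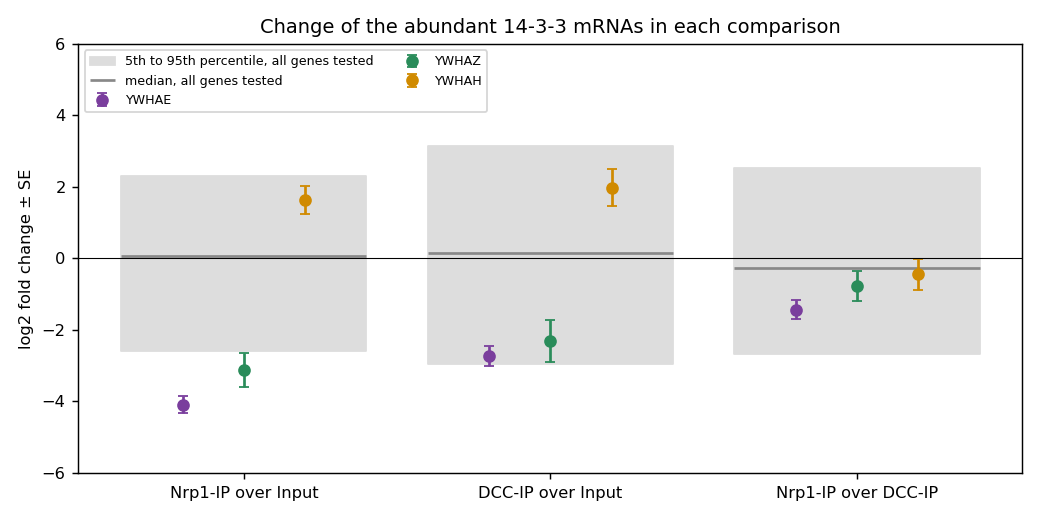
Log2 fold change ± standard error of YWHAE, YWHAZ and YWHAH in the 3 comparisons (3 libraries per group), with the 5th to 95th percentile of all genes tested as a grey band and their median as a line. Over Input, YWHAE and YWHAZ lie below 0 and YWHAH above it in both pulldowns, and between the receptors all 3 lie below 0, with YWHAE at -1.44.

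Whether YWHAH passed over Input depended on the setting, while its direction did not. In DCC-IP its log2 fold change lay between 1.81 and 2.34 over the 16 alternatives, with an edgeR or DESeq2 adjusted p from 0.0132 to 0.291 and 5 calls. In Nrp1-IP it lay between 1.40 and 2.04, with an adjusted p from 0.00454 to 0.294 and 7 calls. In each fit that left out a library YWHAH stayed higher than in Input and did not pass. The 2 comparisons share the Input libraries and are not independent of each other.

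The make-up of the 14-3-3 counts was then taken library by library. YWHAE held 86.3% ± 6.98 of the counts on the 7 genes in Input, 81.4% ± 5.11 in DCC-IP and 72.0% ± 3.56 in Nrp1-IP (SD, n = 3 each). YWHAZ held 13.5% ± 6.95, 15.9% ± 5.64 and 23.5% ± 3.29. YWHAH held 0.0842% ± 0.0154 in Input, 2.21% ± 0.877 in DCC-IP and 3.72% ± 0.812 in Nrp1-IP (SD, n = 3 each). For YWHAH the lowest pulldown library, at 1.40%, lay above the highest Input library, at 0.102%, while for YWHAZ the groups overlapped. YWHAE makes up most of this total, so its choice for its Input counts favours low shares of the other members in Input. The fold change of YWHAH itself over Input was 3.95 in DCC-IP and 3.11 in Nrp1-IP.

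**Figure D3:**
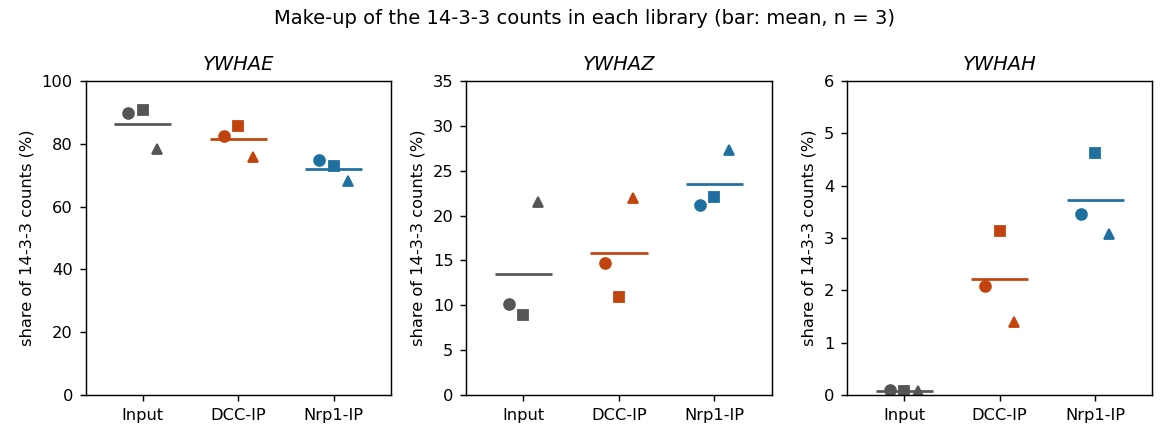
Share of the counts on the 7 14-3-3 genes that fell on YWHAE, YWHAZ and YWHAH, in percent on axes that start at 0, with 1 point per library, its shape giving the replicate number, and a bar at the group mean (n = 3). The share of YWHAH is at most 0.102% in Input and at least 1.40% in the pulldowns. Most of the total is YWHAE, which was chosen for its Input counts.

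Ratios of counts within a library do not depend on how libraries are scaled. For each read on YWHAH there were 883, 1200 and 1050 reads on YWHAE in Input, 39.8, 27.3 and 54.2 in DCC-IP and 21.7, 15.8 and 22.1 in Nrp1-IP. The 3 groups did not overlap, but the choice of YWHAE for its Input counts favours a high value in Input. How often ratios of other genes separate was not counted. Single genes did not overlap for 33.4% in DCC-IP over Input, 31.5% in Nrp1-IP over Input and 26.6% between the receptors. For each read on YWHAH there were 99.1, 117 and 289 reads on YWHAZ in Input, 7.09, 3.46 and 15.7 in DCC-IP and 6.12, 4.78 and 8.88 in Nrp1-IP. Here both pulldowns were apart from Input but not from each other. The log2 ratio of YWHAH to YWHAZ was higher by 4.36 in DCC-IP and by 4.55 in Nrp1-IP than in Input (two-sided exact permutation test, p = 0.1 for each, the smallest that 3 libraries against 3 allow, and 0.167 after Benjamini-Hochberg adjustment over 5 tests).

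Between the receptors, the log2 ratio of YWHAH to YWHAE was higher by 0.99 in Nrp1-IP (two-sided exact permutation test, p = 0.1, adjusted p = 0.167). The log2 ratio of YWHAE to YWHAZ was lower there, with a difference of -0.80 and overlapping libraries (exact permutation test, p = 0.2, adjusted p = 0.25), and that of YWHAH to YWHAZ differed by 0.19 (exact permutation test, p = 0.8). With groups of this size the exact permutation test cannot give a p under 0.1, so it cannot pass 0.05 on any ratio. No other test was run on the ratios, and these values describe the libraries.

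Across the 9 libraries, the log2 CPM of YWHAE and YWHAZ had a Pearson correlation of 0.924, while YWHAH had -0.856 with YWHAE and -0.873 with YWHAZ. These 9 points fall into 3 groups and share their scaling, so the correlations mostly restate the group differences. The mRNAs most like YWHAE among the 7627 other genes were TWIST1 (r = 0.992), CNN3 (r = 0.991) and TRA2A (r = 0.99), with mean levels of 1200, 874 and 3920 CPM in Input and of 73.8, 18.3 and 260 CPM in Nrp1-IP. TWIST1 is a transcription factor of the neural crest, CNN3 an actin-binding calponin and TRA2A a splicing regulator.

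Most like YWHAZ were FDXACB1 (r = 0.988), TIMM8B (r = 0.983), which serves import into mitochondria, and the clone-named transcript CTC-425F1.4 (r = 0.98). Most like YWHAH were BCOR (r = 0.981), a transcriptional corepressor, USP13 (r = 0.971), a deubiquitinase, and GCC2 (r = 0.96), a golgin listed with 0 CPM in Input. The order depended on the scaling: with library sizes alone USP13 came 1 and BCOR 2 while GCC2 fell to place 14, and CNN3 and TIMM8B each fell to place 4 for their member. BCOR had a mean of 1.18 CPM in Input, 21.2 in DCC-IP and 9.55 in Nrp1-IP. USP13 had 5.99, 47.7 and 34.7 CPM in the same order. For YWHAQ the nearest were SBSPON, GAR1 and DYNC1LI1 (r = 0.939 to 0.958). YWHAB was nearest to KIF1A, IMP4 and MPV17L2 and YWHAG to ERCC2, FBXL18 and HNRNPA1, on counts that in part lie at or under the floor.

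The partners of 14-3-3 proteins were taken from 5 lists with 107 genes, namely clients in signalling, cell cycle and transcription, clients in cytoskeleton, polarity and transport, kinases and phosphatases of the sites that 14-3-3 proteins bind, and kinases that phosphorylate 14-3-3 proteins themselves. The lists are short, were not made from a database and were chosen with earlier results of these data known. Their shares of calls are therefore no independent evidence. Of their genes, 50 passed the filter for Nrp1-IP over DCC-IP and 3 of them (6%) were called, against 3.65% of all genes tested. For DCC-IP over Input 5 of 49 (10.2%) were called, all lower in DCC-IP, against 4.98%. For Nrp1-IP over Input 9 of 56 (16.1%) were called, 7 of them lower in Nrp1-IP, against 4.97%. Over the listed genes that passed the filter, the median log2 fold change was 0.11, -0.25 and 0.22 in these comparisons, where all genes tested had -0.27, 0.16 and 0.06. These counts depended on single libraries, as did the calls over all genes. Between the receptors they were 1, 2 and 2 without Nrp1-IP replicates 1, 2 and 3 and 4, 2 and 7 without those of DCC-IP. For DCC-IP over Input they were 0, 0 and 3 without DCC-IP replicates 1, 2 and 3 and 3, 4 and 5 without those of Input. For Nrp1-IP over Input they were 0, 1 and 1 without Nrp1-IP replicates 1, 2 and 3 and 4, 5 and 11 without those of Input. Over all genes the calls in those fits were, in the same order, 74, 77, 114, 254, 200 and 346 between the receptors. They were 0, 1, 206, 31, 96 and 250 for DCC-IP over Input. For Nrp1-IP over Input they were 0, 7, 7, 77, 162 and 441.

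Among the 44 clients in signalling, cell cycle and transcription, 20 to 22 passed the filter. In Nrp1-IP over Input, 2 clients were higher. WEE1, the kinase that holds back entry into mitosis, had a log2 fold change of 1.99 (edgeR adjusted p = 0.0218), and PFKFB2, an enzyme that controls glycolysis, one of 1.49 (edgeR adjusted p = 0.0283). WWTR1, the Hippo pathway coactivator TAZ, was lower, with a log2 fold change of -1.62 (edgeR adjusted p = 0.0445).

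Of the 19 clients in cytoskeleton, polarity and transport, 9 to 11 passed the filter. CTNNB1 (β-catenin) was lower in Nrp1-IP than in Input, with a log2 fold change of -1.70 (edgeR adjusted p = 0.0167), and MARK2, a polarity kinase, had one of -2.61 (edgeR adjusted p = 0.0464) on 31, 78 and 34 counts in Nrp1-IP against 225, 309 and 138 in Input. CTNNB1 was also the 1 gene of the list called between the receptors, with a log2 fold change of -3.01 (edgeR adjusted p = 0.00631). It had 19637, 21165 and 10539 counts in DCC-IP against 2474, 2390 and 2540 in Nrp1-IP. Like YWHAE it was higher in DCC-IP than in Nrp1-IP. In DCC-IP over Input, however, it had 1.14 (edgeR adjusted p = 0.119) and YWHAE -2.72. The study reported CTNNB1 on the DCC side from these same pulldowns, so this call is no independent evidence.

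Of the 11 phosphatases of 14-3-3 binding sites, 7 passed the filter for DCC-IP over Input and 3 were called, and the median log2 fold change of the 7 was -1.42 against 0.16 for all genes tested. PPP1CB, a catalytic subunit of protein phosphatase 1, had 162072, 162349 and 95433 counts in Input and 29727, 35996 and 37703 in DCC-IP, a log2 fold change of -2.45 (edgeR adjusted p = 0.0052). It ranked 10 in counts summed over Input. The 19 genes next to YWHAE in Input counts, PPP1CB among them, had a median of -2.26 in DCC-IP. PPP2R5C, a regulatory subunit of protein phosphatase 2A, had -2.96 (edgeR adjusted p = 0.0052) and PPP3CA, the catalytic subunit of calcineurin, -2.31 (edgeR adjusted p = 0.00884). In Nrp1-IP over Input the last 2 were called as well, with -2.35 and -1.83 (edgeR adjusted p = 0.0113 and 0.024). PPP1CB had 138104, 133014 and 150342 counts in Nrp1-IP, and between the receptors it was higher there by 1.89 on the log2 scale (edgeR adjusted p = 0.00396), the side opposite to that of YWHAE.

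Among the 30 kinases of 14-3-3 binding sites, 10 to 14 passed the filter, and PIM2 was the 1 gene called. It had 887, 815 and 732 counts in Input, 206, 182 and 168 in DCC-IP and 119, 144 and 100 in Nrp1-IP, and its log2 fold changes over Input were -2.54 and -3.17 (edgeR adjusted p = 0.0345 and 0.0113). Of the 3 kinases that act on 14-3-3 proteins, CSNK1A1 (casein kinase 1 alpha) passed the filter. Its counts were 4394, 2539 and 3211 in DCC-IP and 14230, 15701 and 17925 in Nrp1-IP, higher in Nrp1-IP by 2.05 on the log2 scale (edgeR adjusted p = 0.0174).

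**Figure D4:**
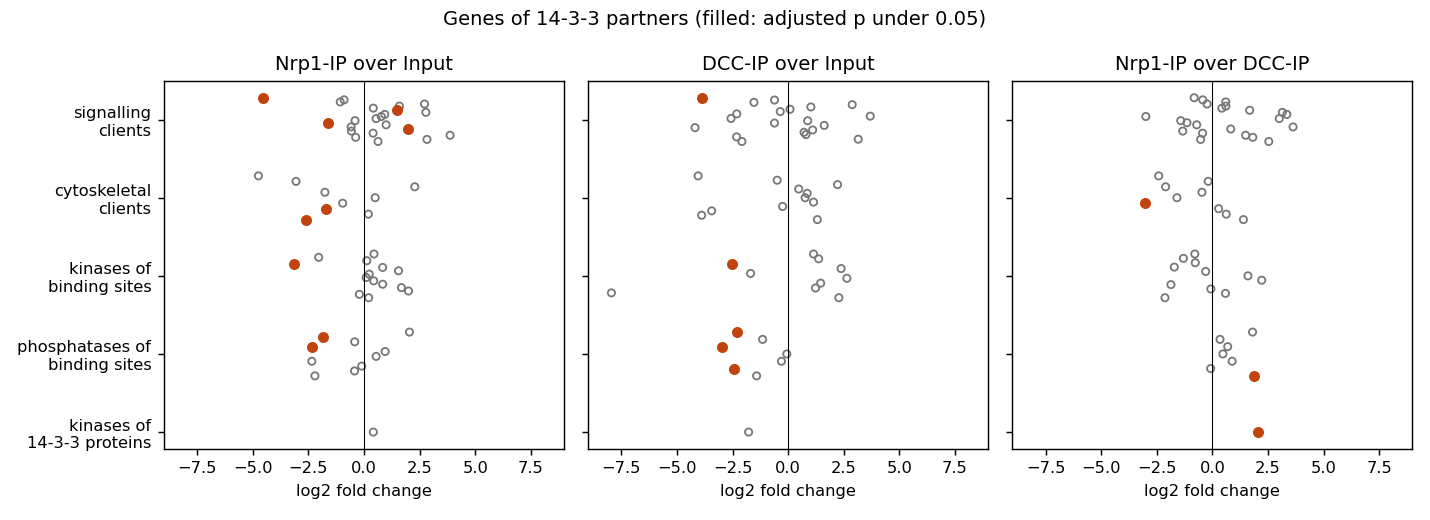
Log2 fold changes of the listed genes of 14-3-3 partners in the 3 comparisons, with 1 point per gene that passed the filter, filled where the edgeR adjusted p is under 0.05 and open otherwise. All 5 filled points of DCC-IP over Input and 7 of the 9 of Nrp1-IP over Input lie below 0.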

How the data were processed

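The authors deposited raw counts per gene symbol, with no normalization, made from HISAT2 (2.1.0) alignments to hg19 that HTSeq (0.11.0) assigned to genes (the build is from the submitters' processing notes, and the annotation and strand setting are not given in the sources used here). The 5 HTSeq summary lines were left out of library sizes and tests. They hold the reads on no gene (48.7% to 55.8% of a library's reads), unaligned reads (10.1% to 16.9%), ambiguous reads (0.195% to 0.517%) and reads aligned to more than 1 place. Samples were grouped by pulldown as labelled.

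Each fit used the 6 libraries of 2 groups and R 4.3.3 with edgeR 4.0.16, by filterByExpr (minimum count 10), TMM, glmQLFit and glmQLFTest, and p-values were adjusted over all genes tested. The standard error is the size of the log2 fold change divided by the square root of F. CPM were scaled by TMM over 9 libraries, with a prior count of 2 for correlations over the 7628 genes that passed the filter. The main fits took no account of the replicate numbers. In DCC-IP and Input the deviations of same-numbered libraries from their group means correlated at 0.117 to 0.421. Other pairs had -0.31 to 0.136, and 5 of 6 libraries correlated best with their own number. For that comparison a fit with the number as a block is therefore given beside the main fit. As alternatives, edgeR's exact test, its likelihood ratio test, DESeq2 1.42.0, 3 other scalings, 2 other filters, all 9 libraries in one fit, the block and each library left out were tried. Genes named are the 7 members, the 3 genes most like each member, up to 4 called genes per list and comparison (1 of them is not reported here), and the 3 genes with the most Input counts. ACTB, ISL1, EPCAM, the markers at 0 and MAP1B were named after their values were seen. The members and lists were chosen with earlier results of these data known. Simulated counts with known changes were used to test the scripts. Python 3.11.15 with pandas 2.3.3, scipy 1.17.1 and matplotlib 3.10.9 did the rest.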

Additional observations from a re-analysis of the deposited data

How the results depend on the processing

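YWHAE and YWHAZ stayed below Input and YWHAH above it in both pulldowns under all 16 alternatives, and YWHAE stayed below DCC-IP in Nrp1-IP. What changed was the calls. Between the receptors, the count of members called went from 1 to 0 with library sizes alone, where YWHAE had -1.30 (edgeR adjusted p = 0.0589), and to between 0 and 1 with a library left out. In DCC-IP over Input it went from 0 to 1 with the exact test, the likelihood ratio test, RLE size factors, library sizes alone or no filter, and to 2 with DESeq2, all 9 libraries, the replicate block or a minimum of 10 counts in every library. In Nrp1-IP over Input it went from 1 to 2 with the exact test, the likelihood ratio test, DESeq2, no filter, library sizes alone, the replicate block or a minimum of 10 counts in every library, and to between 0 and 1 with a library left out.

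Calls over all genes moved too. Between the receptors 235 became 437 (exact test), 488 (likelihood ratio test), 705 (DESeq2), 484 (no filter), 459 (at least 10 counts), 369 (replicate block) and 74 to 346 with a library left out. In DCC-IP over Input 310 became 556, 645 and 1032 with the same 3 tests, 73 without MAP1B, 805 with at least 10 counts, 780 with all 9 libraries, 715 with the replicate block and 0 to 250 with a library left out. In Nrp1-IP over Input 323 became 660, 711 and 966 with those tests, 518 with library sizes alone, 882 with no filter, 632 with at least 10 counts, 125 with all 9 libraries, 556 with the replicate block and 0 to 441 with a library left out. Scaling shifted the split of calls: with library sizes alone it was 209 higher and 45 lower in Nrp1-IP than in DCC-IP (165 and 70 with TMM), 141 and 167 in DCC-IP over Input (91 and 219) and 351 and 167 in Nrp1-IP over Input (126 and 197), and the median log2 fold change of all genes over Input became 0.48 and 0.44 for DCC-IP and Nrp1-IP. With RLE size factors the splits were 191 and 45, 44 and 169, and 85 and 265. The cause was not tested.

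The share of gene counts on the 14-3-3 genes in DCC-IP was 1.09% without MAP1B. The log2 fold change of YWHAZ between the receptors ran from -0.98 (without DCC-IP replicate 2) to 0.183 (without DCC-IP replicate 3), and the difference in the log2 ratio of YWHAH to YWHAZ from -0.365 (without DCC-IP replicate 3) to 0.727 (without DCC-IP replicate 2), with -0.0186 without Nrp1-IP replicate 2. Where Nrp1-IP is involved, the fit with the replicate block is given only as an alternative. In DCC-IP against Nrp1-IP all 6 libraries correlated best with their own number, and in Nrp1-IP against Input 4 of 6 did. The same-numbered pairs had 0.0989 to 0.361 and -0.0043 to 0.364. With the block, YWHAE had -1.43 in Nrp1-IP over DCC-IP (edgeR adjusted p = 0.00921). Calls among the 107 partner genes ran from 3 to 7, 3 to 12 and 5 to 14 over the other settings in the order used above, DCC-IP over Input second, and from 1 to 7, 0 to 5 and 0 to 11 with a library left out. Adding the reads of pseudogenes to their parents was not run, since no row carries their symbols. At this depth and spread, YWHAB, YWHAG and SFN give no direction.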
